A study of Mus musculus with 8 samples.

Results

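The genes described here belong to the clustered protocadherins, the cell adhesion genes named Pcdha, Pcdhb and Pcdhg with a letter or number. They were picked out by gene symbol, with earlier results of these data known, and 22 of 20985 probe sets carried such a name. All 22 were genes of the beta cluster, Pcdhb1 to Pcdhb22, which is every beta gene of the mouse gene table, and each had 1 probe set. The gene table also names 14 alpha and 22 gamma genes, and none of the rows used here carried their names or gene numbers, so the alpha and gamma clusters and their C-type genes were not analysed here. All of these genes lie on chromosome 18, while Kcnh1, the gene disrupted in the study, lies on chromosome 1.

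The tissue was hippocampus from male mice aged 8 weeks, 4 homozygous Kv10.1 -/- knockouts and 4 Kv10.1 +/+ wildtype animals, with 1 array per mouse and no treatment. The mice carry numbers of a lower series, 3749 to 3753, and a higher one, 3759 to 3763, which largely go with genotype. Kv10.1 (Eag1) is a voltage-gated potassium channel encoded by Kcnh1. The strain background, the breeding of the controls and the deleted part of the gene are not known from the labels. The level of Kcnh1 was 8.35 ± 0.062 in the 4 knockouts, against 9.34 ± 0.131 in the 4 wildtype mice (SD), which is a log2 difference of -0.99 (limma adjusted p = 0.00319), and no knockout value reached a wildtype value. The markers of the labelled tissue were present, with all 10 neuron markers and all 10 markers of hippocampal principal neurons above the median of all probe sets.

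Clustered protocadherins are single-pass membrane proteins of neurons, with extracellular cadherin repeats that bind the same isoform on another cell. Each neuron switches on a few promoters of the clusters, by a choice that involves the insulator protein CTCF, cohesin and DNA methylation, and the resulting set of isoforms lets a neuron tell its own branches from those of other neurons. The beta genes differ from the alpha and gamma genes in that each is a complete coding unit without shared constant exons. In a piece of tissue such as the hippocampus, a level is a sum over many neurons with different choices, and fewer expressing cells cannot be told apart from less RNA per cell.

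The 22 genes read between 6.40 and 8.50 as means of log2 levels over the 8 mice, with a median of 7.51 against 7.52 for all probe sets. Their means stood between percentiles 20.2 and 70.2 of all probe sets, with 11 above the median probe set. As a measure of the floor of the arrays, 123 vomeronasal type 1 receptor genes (Vmn1r), which are odour receptors of the vomeronasal organ, had a median of 5.60 and a 95th percentile of 6.29. All 22 beta protocadherins had means above that percentile, Pcdhb1 by the narrowest margin. One vomeronasal receptor read 8.59, above every member, so the floor is not a strict bound. Probe sets bind with different affinity and the probe sequences of each set were not used here, so levels of different genes cannot be ranked as amounts of RNA, and signal from near relatives within the family was not tested.

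**Figure D1:**
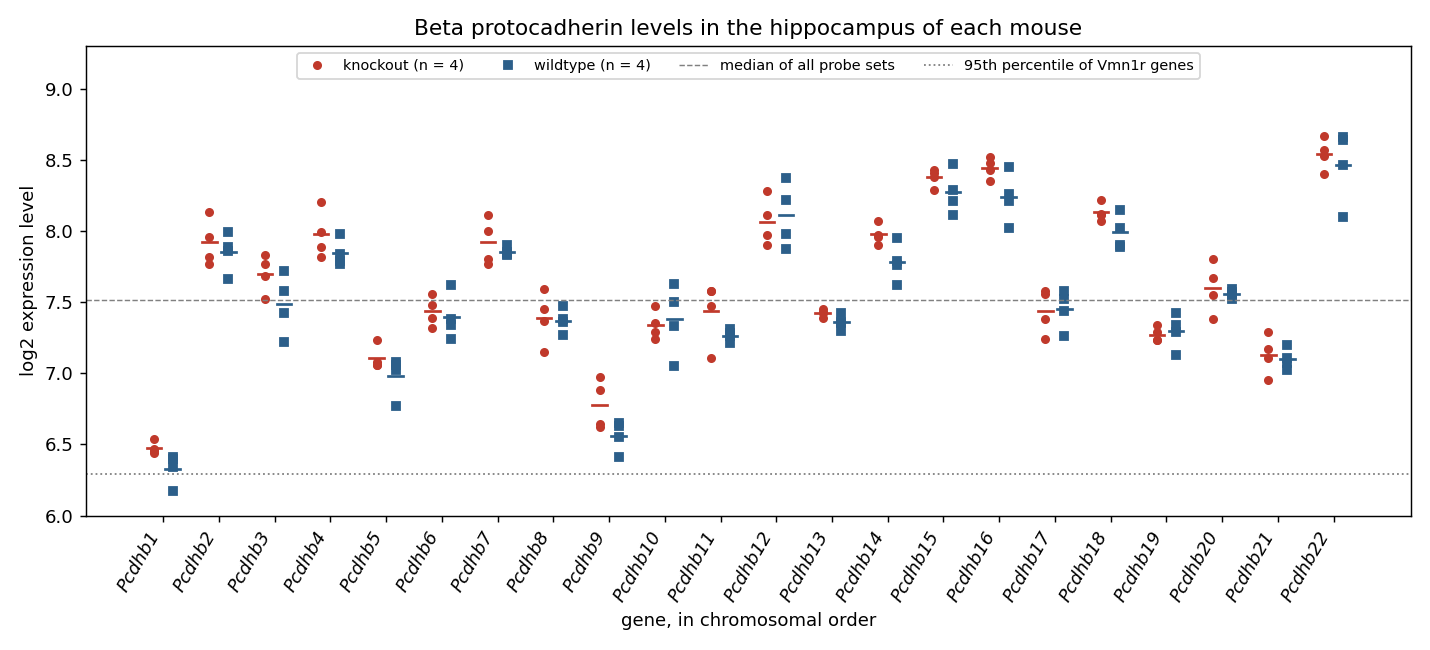
Log2 expression level (vertical axis) of the 22 beta protocadherin genes in chromosomal order (horizontal axis), with 1 point per mouse and a short line at each group's mean. The groups overlap for every gene but Pcdhb1, and the dashed and dotted lines mark the median of all probe sets, 7.52, and the 95th percentile of the Vmn1r genes, 6.29.

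The first gene of the cluster, Pcdhb1, is the divergent member of the family, known for a promoter without the conserved element that binds CTCF in the other beta genes. It had the lowest mean level of the 22. Pcdhb1 read 6.47, 6.44, 6.54 and 6.45 in knockouts 1 to 4, against 6.40, 6.34, 6.41 and 6.17 in wildtype mice 1 to 4. Every knockout value lay above every wildtype value, though the gap between the groups was narrow and wildtype 4 stood lowest. The wildtype 4 value lay below the 95th percentile of the Vmn1r genes, 6.29, so these levels are close to the floor of the arrays. It was the single beta protocadherin whose groups did not overlap, 1 of 22, beside 2.16% of all probe sets, 0.967% with the knockouts higher. The log2 difference was 0.14 ± 0.075 (SE), with a 95% interval from -0.02 to 0.31 and a limma adjusted p of 0.997. It was 0.09 without wildtype 4, and 0.20 with the mouse number series as a term in the fit.

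No beta protocadherin passed the test over all genes. At an adjusted p under 0.05 the count was 0 of 22, beside 0.00477% of all probe sets, and every member had a limma adjusted p of 0.997 or more. At an unadjusted p under 0.05 the count was 3 of 22, all higher in knockouts, where 3.16% of all probe sets were past that limit 1.63% on the higher and 1.53% on the lower side. These were Pcdhb9, Pcdhb14 and Pcdhb16. With the mouse number series as a term, none of them was past that limit, and Pcdhb1 and Pcdhb18 were in their place, 2 of 22 beside 5.72% of all probe sets. With the first principal component of all probe sets as a covariate the count was 4, the same 3 genes and Pcdhb1, beside 6.33%.

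Pcdhb14 had the smallest unadjusted p of the family. It read 7.97, 8.07, 7.90 and 7.96 in knockouts and 7.76, 7.62, 7.79 and 7.95 in wildtype mice. The knockouts lay close together, and wildtype 4 reached into their range. The log2 difference was 0.19 ± 0.083 (SE; 95% interval 0.01 to 0.38; limma adjusted p = 0.997). With single mice left out it ran from 0.14 to 0.25, with an unadjusted limma p from 0.0098 to 0.12. With the mouse number series as a term it was 0.14, and within the lower and higher series it was 0.25 and 0.03.

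Pcdhb16, which encodes a protein found at synapses of the mammalian retina and brain, read 8.35, 8.48, 8.43 and 8.52 in knockouts, against 8.02, 8.21, 8.26 and 8.45 in wildtype mice. Again wildtype 4 lay within the knockout range, and wildtype 1 was the lowest of all. The log2 difference was 0.21 ± 0.094 (SE; limma adjusted p = 0.997), and it was 0.14 without wildtype 1 and 0.28 without wildtype 4. With the mouse number series as a term it was 0.11, and within the lower and higher series it was 0.19 and 0.03.

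Pcdhb9, the dimmest member after Pcdhb1, read 6.64, 6.62, 6.88 and 6.97 in knockouts, against 6.41, 6.65, 6.63 and 6.55 in wildtype mice. Knockouts 3 and 4 were high, and knockouts 1 and 2 read like wildtype 2 and 3. Its difference of 0.22 ± 0.098 (SE) was the largest in the family, a 1.16-fold ratio (limma adjusted p = 0.997), and it ran from 0.15 without knockout 4 to 0.27 without knockout 2. It was 0.10 with array weights and 0.17 with the mouse number series as a term.

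Pcdhb3 varied most among the 8 mice. It read 7.52, 7.77, 7.68 and 7.83 in knockouts, against 7.42, 7.58, 7.72 and 7.22 in wildtype mice. Wildtype 4 was the low array and the groups overlapped widely. The log2 difference was 0.22 ± 0.113 (SE; limma adjusted p = 0.997), or 0.13 without wildtype 4 and 0.29 without wildtype 3. It was -0.05 within the lower series of mouse numbers and 0.54 within the higher one.

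Pcdhb22, at the far end of the beta cluster, had the highest mean level. It read 8.40, 8.67, 8.53 and 8.57 in knockouts, against 8.10, 8.66, 8.64 and 8.46 in wildtype mice. The low value of wildtype 1 set its sign, since the difference was 0.08 ± 0.122 (SE) with all mice and -0.04 without that mouse.

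Pcdhb13 was the steadiest gene of the family. It read 7.45, 7.43, 7.39 and 7.42 in knockouts, against 7.42, 7.35, 7.36 and 7.30 in wildtype mice. Its SD within genotype, 0.039, was smaller than that of all but 0.796% of probe sets, and its 95% interval of -0.07 to 0.20 was the narrowest among the 22. The difference of 0.06 ± 0.063 (SE) did not pass the test (limma adjusted p = 0.997).

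**Figure D2:**
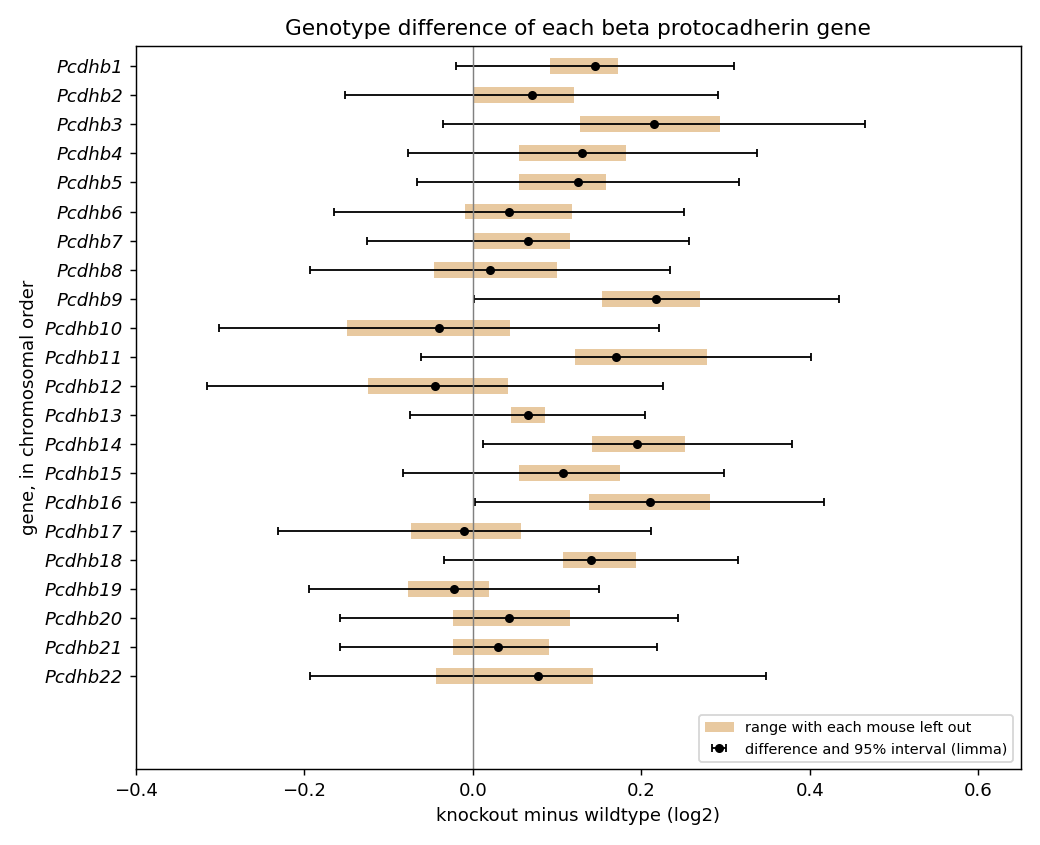
Knockout minus wildtype difference in log2 level (horizontal axis) of each beta protocadherin gene, in chromosomal order from top to bottom. Points with bars give the limma estimate and 95% interval with 4 mice per group, and the shaded boxes give the range with each mouse left out. The intervals of 19 genes include 0, and those of Pcdhb9, Pcdhb14 and Pcdhb16 lie just above it.

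Of the other members, Pcdhb11 differed by 0.17 ± 0.104, Pcdhb18 by 0.14 ± 0.079, Pcdhb4 by 0.13 ± 0.093, Pcdhb5 by 0.12 ± 0.086 and Pcdhb15 by 0.11 ± 0.086 (SE). Pcdhb11 was spread in knockouts, with 7.58, 7.47, 7.11 and 7.58, and tight in wildtype mice, from 7.21 to 7.31, and its difference was 0.28 without knockout 3. Single mice also moved Pcdhb4, to 0.06 without knockout 2, Pcdhb5, to 0.05 without wildtype 2, and Pcdhb15, to 0.05 without wildtype 1 and 0.17 without wildtype 4. Nearer to 0 were Pcdhb2 (0.07), Pcdhb7 (0.06), Pcdhb6 (0.04), Pcdhb20 (0.04), Pcdhb21 (0.03) and Pcdhb8 (0.02). Pcdhb6 and Pcdhb8 are the beta members known for crystal structures of the adhesive dimer.

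Pcdhb12 (-0.04), Pcdhb10 (-0.04), Pcdhb19 (-0.02) and Pcdhb17 (-0.01) were the members with a value below 0. Pcdhb10 and Pcdhb12 were among the most variable genes of the family. Pcdhb10 read 7.35, 7.47, 7.24 and 7.29 in knockouts, against 7.05, 7.50, 7.33 and 7.63 in wildtype mice, so that the wildtype mice held both its highest and its lowest value.

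Across the family, 18 of 22 genes had a higher mean in knockouts and 4 a lower one, where 48.1% of all probe sets were higher. Of the 18, 11 kept their sign in every alternative fit that tested them, 16 to 18 fits each, and Pcdhb2, Pcdhb6, Pcdhb7, Pcdhb8, Pcdhb20, Pcdhb21 and Pcdhb22 changed sign in at least 1. All 4 lower members also changed sign in at least 1. The median difference of the 22 genes was 0.07 on the log2 scale, beside -0.0025 for all probe sets. This median is smaller than the median standard error of a single member, 0.094. The same arrays enter all 22 differences, so the shared sign does not stand for 22 separate results. The highest upper bound of the 22 intervals was 0.465 and the lowest lower bound was -0.316, so a change in a single member outside these bounds lies beyond its 95% interval. In the 11 genes at the Pcdhb1 end the median was 0.13, with 10 higher, and in the 11 at the Pcdhb22 end it was 0.06, with 8 higher.

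Single mice weighed on these values. Wildtype 1 gave the lowest level of 6 of the 22 genes, wildtype 2 of 5 and wildtype 4 of 4. Wildtype 3 gave the lowest level of 1 gene, and the knockout arrays of 1 or 2 genes each. Wildtype 1 also stood apart on the first principal component of all probe sets, with a score of 32.0 where the other arrays lay between -15.9 and 14.9, knockout 1 being the next highest. Without wildtype 1 the median difference was 0.07 and 17 genes were higher, but the count at an unadjusted p under 0.05 fell to 0, beside 3.09% of all probe sets in that fit. It also fell to 0 without knockout 4 and without both wildtype 1 and knockout 1, the arrays with the highest scores, where the median was 0.10 and 0.09 and the shares of all probe sets were 2.91% and 3.56%. The count was 1, Pcdhb9, without knockout 2 or without wildtype 2, beside 2.21% and 3.30%. Without knockout 3 it was 2 (Pcdhb11 and Pcdhb14), and without wildtype 3 it was 2 (Pcdhb3 and Pcdhb18), with medians of 0.11 and 0.12, beside 2.89% and 3.65%. It was 3 without knockout 1 (Pcdhb3, Pcdhb9 and Pcdhb16, beside 3.93%) and without wildtype 4 (Pcdhb14, Pcdhb15 and Pcdhb16, beside 3.68%).

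Within the lower series of mouse numbers, with knockout 1 set against wildtype 1 to 3, the median difference was 0.08 with 18 of 22 genes higher. Within the higher series, with knockout 2 to 4 set against wildtype 4, it was 0.06 with 17 of 22 higher. There were 13 genes that were higher in both. These within-series values are given without a test. The fit over all 8 mice with the series as a term had a median difference of 0.09, with 17 of 22 genes higher and 0 past an adjusted limma p of 0.05.

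**Figure D3:**
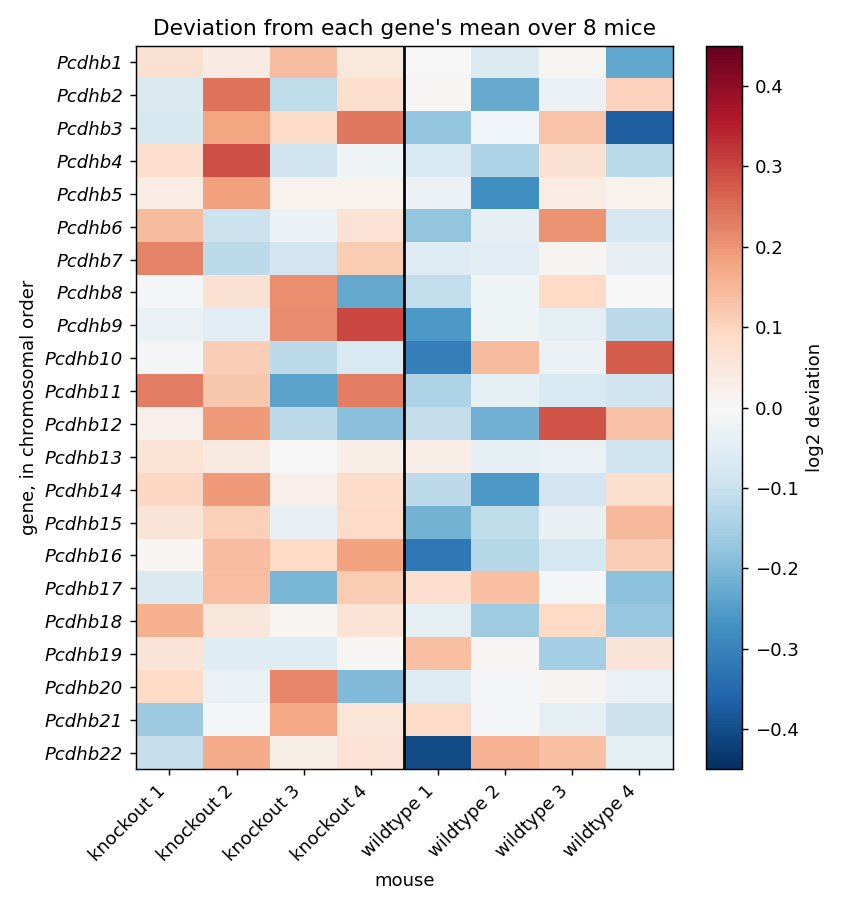
Deviation of each log2 level from that gene's mean over the 8 mice, with genes in chromosomal order from top to bottom and knockouts to the left of wildtype mice. Red marks values above and blue values below the gene's mean. Knockouts 1 to 4 are above the mean for 14, 16, 11 and 17 of 22 genes, and wildtype 1 to 4 for 5, 4, 11 and 8.

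The mean deviation of the family in each mouse shows the same picture. It was 0.037, 0.087, 0.0055 and 0.048 in knockouts 1 to 4, against -0.102, -0.062, 0.021 and -0.034 in wildtype mice 1 to 4. Knockout 3 lay below wildtype 3, so the groups overlapped, and wildtype 1 was the lowest.

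From mouse to mouse, the median correlation of the beta genes was near that of probe sets in general, and its quartiles lay closer together. After removal of each genotype's mean, the 231 pairs of members had a median Pearson r over the 8 arrays of 0.011, with quartiles of -0.22 and 0.33. Over all pairs of the 20985 probe sets the median was 0.0054, with quartiles of -0.37 and 0.39. Some probe sets shared more than this, since the pairs of 8 oligodendrocyte and myelin markers had a median r of 0.50 and the 123 Vmn1r genes one of 0.20. The 21 pairs of neighbours in gene order had a median r of -0.026, and the 210 other pairs one of 0.011. The highest r of all was in a neighbour pair, Pcdhb15 and Pcdhb16 (0.90), and the lowest in Pcdhb13 and Pcdhb16 (-0.87). Pcdhb10, Pcdhb15 and Pcdhb16 had r of 0.79 to 0.90 with each other and of -0.86 to -0.75 with Pcdhb1. These pairs were picked as extremes of the 231. Pcdhb12 had the highest median r with the other 21 genes, 0.26, and Pcdhb19 the lowest, -0.22. All pairs share the same 8 arrays, so these values are a description.

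**Figure D4:**
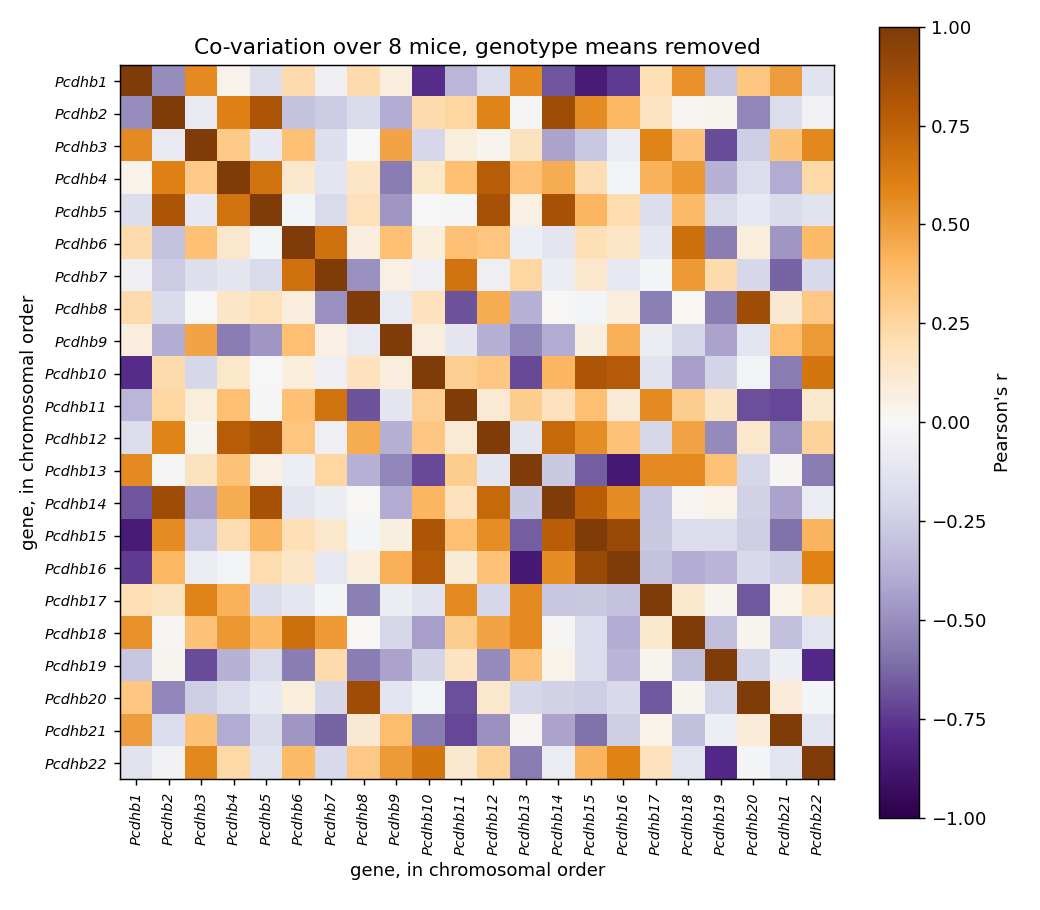
Pearson's r between the log2 levels of each pair of beta protocadherin genes over the 8 mice after removal of the genotype means, with both axes in chromosomal order and r on the colour scale from -1 to 1. High and low values lie both near to and far from the diagonal. The pairs of neighbours next to it have a median of -0.026 and a highest r of 0.90, in Pcdhb15 and Pcdhb16.

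With genotype left in the values, the median r of the 231 pairs was 0.13, beside 0.0044 for all probe sets. That measure includes the genotype differences given above, 18 of which have the same sign.

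Genes that act with the clustered protocadherins did not pass the test. Of 24 genes for CTCF, cohesin and the chromatin control of the clusters, 0 were past an unadjusted limma p of 0.05 or an adjusted one, 11 were higher and 13 lower, and the median difference was -0.02. The smallest p in that list belonged to Dnmt3a, a DNA methyltransferase (-0.18 ± 0.086, SE), Tet3, a methylcytosine dioxygenase (-0.15 ± 0.075), and Wapl, which releases cohesin from chromatin (0.18 ± 0.099). Tet3 read 8.33, 8.16, 8.32 and 8.23 in knockouts, against 8.39, 8.34, 8.38 and 8.55 in wildtype mice. These groups did not overlap, the case for 1 of 24 in that list, beside 2.16% of all probe sets.

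Among 23 partners and effectors, such as the WAVE complex and focal adhesion kinases, 2 were past an unadjusted p of 0.05, where 3.16% of all probe sets were, and none past an adjusted one, with a median difference of 0.0050. They were the cytoskeletal GTPase genes Rhoa (0.18 ± 0.065, SE; limma adjusted p = 0.997) and Cdc42 (0.25 ± 0.111). Without knockout 4 Cdc42 was at 0.15 and no longer past the unadjusted limit, as was the case with the mouse number series as a term (0.19). Rhoa read 11.03, 11.01, 10.94 and 10.95 in knockouts, against 10.75, 10.88, 10.80 and 10.77 in wildtype mice, with no overlap. That was the case for 1 of 23 in that list, beside 2.16% of all probe sets. Cntnap1, a paranodal adhesion gene, differed by -0.26 ± 0.146 (SE), or by -0.11 without wildtype 1. The 6 measured genes of the proteases that cut protocadherins at the membrane had a median difference of 0.12, with 4 higher and none past an unadjusted p of 0.05. Those with the smallest p were the gamma-secretase genes Aph1b (0.14, or 0.09 without knockout 3) and Ncstn (0.21, or 0.04 without knockout 1) and the sheddase gene Adam10 (0.17). With the mouse number series as a term Aph1b was at 0.08, Ncstn at 0.47 and Adam10 at 0.20. Ncstn was at 0.31 with the first principal component as a covariate. In both fits Ncstn was past an unadjusted limma p of 0.05, where 5.72% and 6.33% of all probe sets were, but not past an adjusted one.

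The 13 genes listed as non-clustered protocadherins, Cdhr1 among them, are adhesion genes outside the alpha, beta and gamma clusters. They had a median difference of 0.03, with 8 higher and 5 lower. Pcdh18 was the single one past an unadjusted limma p of 0.05, 1 of 13 beside 3.16% of all probe sets. It read 8.09, 7.74, 7.62 and 7.93 in knockouts, against 7.19, 7.64, 7.78 and 7.40 in wildtype mice (difference 0.34 ± 0.139, SE; limma adjusted p = 0.997). The difference was 0.17 with array weights and 0.16 without wildtype 1 and knockout 1. It was 0.46 with the mouse number series as a term and 0.435 without wildtype 3. Pcdh9 was higher in every knockout, at 11.34 to 11.42, than in any wildtype mouse, at 11.22 to 11.32 (difference 0.11 ± 0.063, SE). Groups without overlap were found for 1 of 13 in that list, beside 2.16% of all probe sets. Pcdh10 differed by 0.12, or by 0.07 without wildtype 4 and 0.22 without knockout 4. The 12 genes listed as classical cadherins of brain, Cdh13 among them, had a median difference of 0.11 with 10 higher. That median is no smaller than that of the beta genes, and none of the 12 was past an unadjusted p of 0.05. Cdh11 (0.16 ± 0.075, SE), Cdh6 (0.15, or 0.08 without knockout 3) and Cdh12 (-0.14) had the smallest p there. Cdh11 was also the 1 of 12 whose groups did not overlap, beside the same share of all probe sets. Whether these lists differ from each other was not tested.

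**Figure D5:**
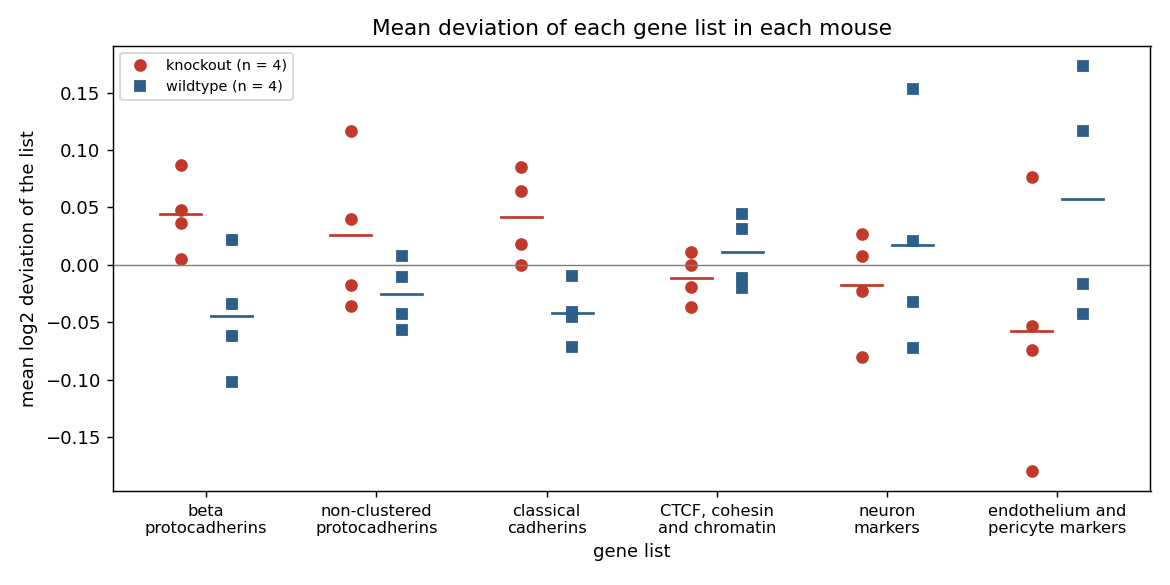
Mean over the genes of a list of the log2 deviation from each gene's mean over the 8 mice (vertical axis), for 6 gene lists, with 1 point per mouse, 4 per group, and a short line at the group mean. The beta protocadherins run from 0.0055 to 0.087 in knockouts and from -0.102 to 0.021 in wildtype mice, with wildtype 1 the lowest in that list and the highest in neuron markers.

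The cell type markers give the makeup of the samples beside these values. The mean deviation of 10 neuron markers ran from -0.081 to 0.026 in knockouts and from -0.073 to 0.153 in wildtype mice, with a median difference of -0.03 and 4 higher. Wildtype 1, the highest for these markers, was also the array with the widest interquartile range over all probe sets, 2.42. Among 8 interneuron markers 5 were higher, with deviations from -0.024 to 0.134 in knockouts and from -0.149 to 0.060 in wildtype mice. All 8 endothelial and pericyte markers were lower, with a median difference of -0.11 and mean deviations of -0.179 to 0.077 in knockouts and -0.043 to 0.173 in wildtype mice. Of 8 choroid plexus markers 7 were lower, with deviations of -0.253 to 0.018 in knockouts and -0.186 to 0.774 in wildtype mice, the highest being wildtype 2. The median differences were -0.05 for hippocampal principal neurons, -0.005 for astrocytes, 0.07 for oligodendrocytes and myelin, -0.03 for oligodendrocyte precursors and 0.07 for microglia. None of these markers had an adjusted p under 0.05 by limma. At an unadjusted p under 0.05 there were 3 of them, where 3.16% of all probe sets were past that limit. They were 1 of 10 principal neuron markers, lower, 1 of 8 oligodendrocyte and myelin markers, higher, and 1 of 8 endothelial and pericyte markers, lower. The part of the markers in the values of the beta protocadherins was not tested.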

How the data were processed

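The authors deposited 1 log2 value per probe set and mouse, made with R 2.9, limma and RMA, per the submitters' processing notes, which give no settings. RMA subtracts background, equalises arrays and summarises probes, and these steps set the scale of small differences. Array medians lay between 7.50 and 7.55. Interquartile ranges ran from 2.09 in wildtype 4 to 2.42 in wildtype 1, so the arrays were not equal in spread. A fit with quantiles equalised again gave a median difference of 0.10 for the beta genes. In it Pcdhb18 took the place of Pcdhb16 among the 3 of 22 at an unadjusted limma p under 0.05, beside 3.71% of all probe sets. Beyond that fit, what the spread does to the values of single genes was not tested. The number of arrays limits the precision, and background signal was not analysed here.

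Groups came from the genotype labels, and each mouse is a separate animal. Limma 3.58.1 in R 4.3.3 (lmFit, eBayes, two-sided) was run on all 20985 probe sets with genotype as the factor and Benjamini-Hochberg adjustment at 0.05, and tested on simulated data. Symbols came from the platform annotation, and gene order and chromosomes from the GRCm38.p6 table. Of the listed names, Psenen was not matched. The members, gene lists and alternatives were chosen with earlier results of these data known. Named members were the 4 with the smallest p, any without overlap, and those with extreme mean or SD, and in other lists the 3 with the smallest p. Further members were named to account for all 22. Alternatives were 18 other fits, listed with the limits.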

Additional observations from a re-analysis of the deposited data

Results flagged for a closer look

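Values that stood far from the other 3 mice of their group were looked for in 78 groups of 4, and 4 were found. The limit used is one that 1 in 20 groups pass by chance. Some of the genes were picked by small p, so the count is not read against that share. Within the beta protocadherins it was 1 of 44 groups. Pcdhb5 read 7.23 in knockout 2, where the other knockouts read 7.06 to 7.08. Aph1b read 8.94 in wildtype 1, against 9 to 9.01 in the other wildtype mice. Pcdh10 read 8.25 in knockout 4, while knockouts 1 to 3 had 8.61 to 8.66. Cdh11 read 10.19 in wildtype 4, against 10.37 to 10.40 in the other wildtype mice.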

How the results depend on the processing

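Fits with array weights, an intensity trend, robust moderation, median centring, quantiles equalised again, dim probe sets left out, the mouse number series or the first principal component as a term, wildtype 1 and knockout 1 left out together, and each mouse left out gave 0 members past an adjusted p of 0.05 in all 18. The count at an unadjusted p under 0.05 was 1 without the dimmest 25% or 50%, which left 21 and 11 members. The shares of all probe sets kept were 3.29% and 3.56%. It was 0 without wildtype 1 and knockout 1 (3.56% of all probe sets) and 4 with the first component (6.33%). With the mouse number series it was 2 (5.72%), Pcdhb1 and Pcdhb18, and not the 3 genes named above. It was 2 with the intensity trend (3.02%) and 3 with array weights (6.01%), the latter being Pcdhb5, Pcdhb14 and Pcdhb16. Robust moderation and median centring gave 3 (3.145% and 3.18%), again Pcdhb9, Pcdhb14 and Pcdhb16. Quantiles equalised again gave 3 (3.71%), with Pcdhb18 in place of Pcdhb16. With single mice left out it was 0 to 3, beside 2.21% to 3.93%. The median difference stayed above 0, from 0.06 to 0.12. It was 0.08 and 0.06 within the lower and higher series of mouse numbers, a split added after seeing the data. The median r within the family was 0.13 with genotype left in, and it ran from -0.0195 to 0.0802 with single mice left out. Pcdhb22 ran from -0.0442 without wildtype 1, where its sign turned, to 0.143 without wildtype 2. No paired analysis was possible because the labels give no number that links a knockout to a wildtype mouse. The planned alpha and gamma values, correlations between clusters and sequence features were not run, since only beta genes were measured in the rows used here and no sequence of them was given.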
